A study of Homo sapiens with 4 samples.

Results

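The cytosolic heat shock chaperones and the chaperonin CCT were examined as a set of 37 genes given by symbol: 6 genes of the HSP70 family, 2 HSP90 genes, 5 J-proteins, 3 BAG proteins, 3 small heat shock proteins, 8 co-chaperones of HSP70 and HSP90, 2 heat shock factors and the 8 subunits of CCT. The rule is this list of symbols and uses no measured value. However, the members and the further lists below were chosen with earlier results of these data known. Their shares, set against all genes, are therefore not blind to the data. All 37 were found among the 25192 genes of the tables, and all 37 passed the filter on low counts that left 14099 genes for testing.

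The RNA came from A549, a human lung adenocarcinoma cell line, extracted 48 h after infection with a retrovirus. Control cells (EV) received the pLZRS-IRES-GFP virus that expresses only GFP, and FCN3 virus cells received the same vector carrying the full-length coding sequence of FCN3, a secreted lectin of the complement system, with a C-terminal V5 tag. Each group had 2 libraries, replicates 1 and 2. The labels do not say that replicates were separate cultures, so p-values measure at most the spread between these 4 libraries. The fit also borrows spread across genes, so a standard error (SE) does not show a gene's own spread alone. A single cell line with virus-driven expression is the only model. The question for this gene set was whether the folding machinery of the cytosol differed between the groups.

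Summed expected counts ranged from 16353554 to 35733735 per library, with replicate 1 the deeper library in both groups, and a floor of 3 counts equalled 0.084 to 0.183 CPM, a count scaled to the library's size with TMM factors. The expected count of FCN3 was 1 and 0 in the EV libraries, against 722388 and 448352 in the FCN3 virus libraries. The epithelial keratin KRT8 was at 1761 to 2651 CPM and the NRF2 target NQO1, high in A549, at 1618 to 1865 CPM. In contrast, CD3E, a T cell marker, and PECAM1, an endothelial marker, had no count and PTPRC, VWF and CDH5, of leukocytes and endothelium, had at most 4. Among fibroblast markers DCN had no count and LUM at most 1, while COL1A1 was at 9.23 to 26.4 CPM, higher in replicate 2 of both groups. The epithelial markers EPCAM, at 1.00 to 3.11 CPM, and CDH1, at 9.23 to 24.4 CPM, were low. In the fit with the replicate number as a block, all 5 epithelial markers changed (adjusted p under 0.01), against 36.2% of all tested genes. KRT19, KRT18 and KRT8 rose by 1.27, 0.31 and 0.26 on the log2 scale, and EPCAM and CDH1 fell (-1.13 and -0.57). Without the block none of the 5 was called (edgeR adjusted p from 0.0397 to 0.450). The groups of KRT8, KRT18 and CDH1 overlapped. The sum of the 5 markers was at 2933 and 3725 CPM with EV and at 3605 and 4513 CPM with the FCN3 virus. Of the 3 NRF2 markers, NQO1 fell by 0.16, AKR1B10 rose by 0.16, and AKR1C1 differed by 0.07 without passing the test. Without the block none of these 3 was called (edgeR adjusted p from 0.336 to 0.778). The part of these marker differences in the results for the 37 genes was not tested.

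Chaperones of the cytosol work as a relay. HSP70 binds short hydrophobic stretches of an unfolded protein in cycles of ATP hydrolysis that J-proteins start and nucleotide exchange factors, such as BAG proteins and HSPH1, reset. HSP90 takes over late folding steps of kinases and steroid receptors with a set of co-chaperones, and CCT, a double ring that encloses its substrate, folds actin and tubulin. Heat shock factor 1 switches many of these genes on when unfolded protein accumulates in the cytosol, through promoter elements built of inverted GAA repeats, whereas chaperones of the endoplasmic reticulum (ER) answer to the unfolded protein response.

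With the replicate number as a block in the model, so that FCN3 virus was compared with EV within each number, 24 of the 37 genes changed (64.9%), against 36.2% of all tested genes. Of these, 21 fell (56.8% of the set, against 17.1% of all genes) and 3 rose (8.11%, against 19.1%). The test was edgeR's quasi-likelihood test at an adjusted p under 0.01 (Benjamini-Hochberg). Without the block, the same test called none of the 37, against 0.965% of all genes (0.738% higher and 0.227% lower), and the adjusted p ran from 0.0204 to 0.998. An unadjusted p under 0.05 was reached by 13 of the 37 without the block, 10 of them lower, against 25.1% of all genes. DESeq2 called 18 members with the block, against 11.9% of its 18636 genes, and 4 without it, against 5.62%. Those 18636 genes include ones that the filter on low counts removed for edgeR, so the shares of the 2 tools are of unlike sets. The labels give the replicate numbers but not what they stand for, so each call below rests on comparing libraries that share a number.

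The changes were small. The median log2 difference (FCN3 virus minus EV) over the 37 genes was -0.16, a change of -10.8%, against 0.01 over all tested genes, and the range was -0.70 to 0.59. Within replicate 1 alone the median was -0.20, with 30 genes lower, and within replicate 2 alone it was -0.17, with 28 lower. Over all tested genes these medians were 0.02 and 0.00475. All 24 called genes had the same sign in both pairs, which a call with the block itself favors. The 2 FCN3 virus libraries lay below both EV libraries in 23 genes, against 26.5% of all genes, and above both in 4, against 28%. In all, 73.0% of the set did not overlap, against 54.5% of all genes. Most members are abundant, with 35 or 36 of the 37 at a level of at least 10 TPM, the deposited abundance per transcript length, in every library, and the part of that depth in their share of calls was not tested.

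**Figure D1:**
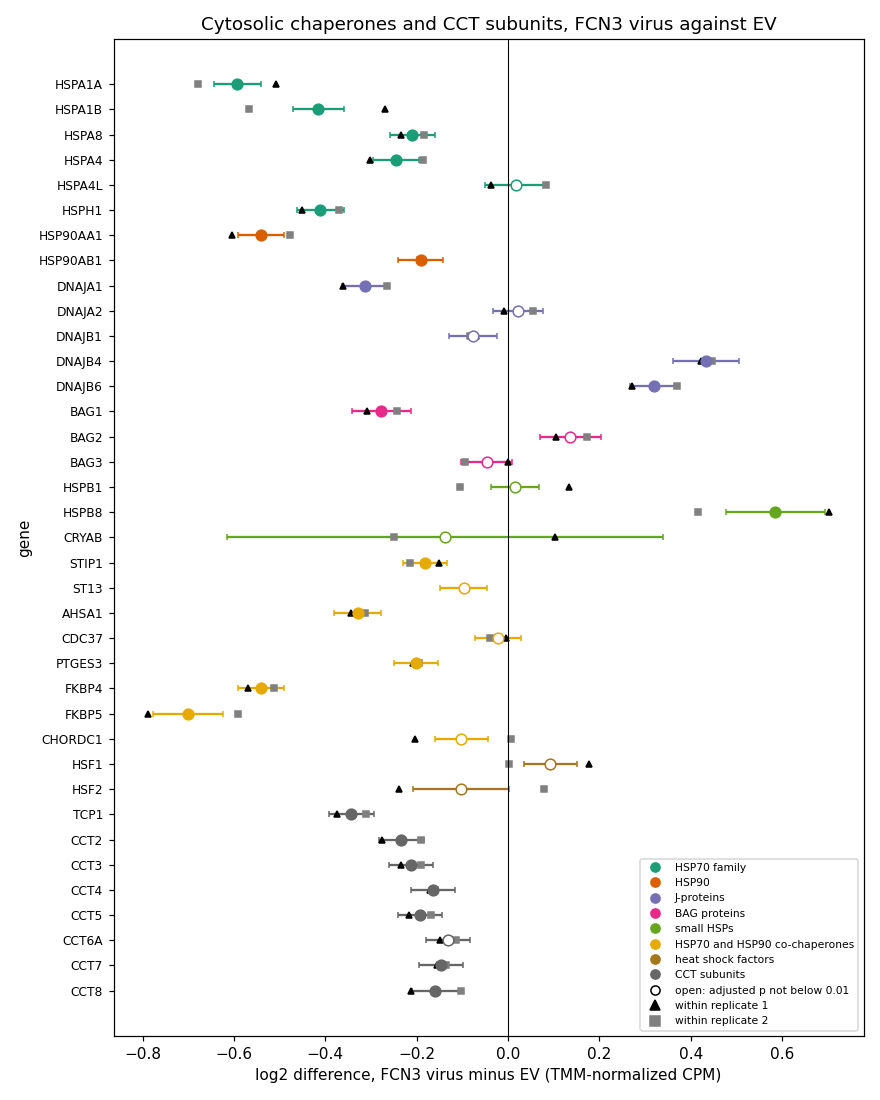
Log2 difference between FCN3 virus and EV for each of the 37 genes, ordered by role. Circles with bars give the fitted value and its SE, filled where the adjusted p with the replicate block was below 0.01, and triangles and squares give the difference within replicate 1 and within replicate 2. The 21 filled circles left of 0 include 7 of the 8 CCT subunits, and the 3 to the right of 0 are DNAJB4, DNAJB6 and HSPB8.

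Added up on the TPM scale, the 37 genes made up 1.62% and 1.53% of the total in the EV libraries and 1.25% and 1.23% in the FCN3 virus libraries. FCN3 itself took 4.16% and 4.47% of the total in the latter, which lowers the TPM of every other gene there. Summed on the TMM-normalized CPM scale, the members were at 19834 and 18442 CPM with EV and at 16249 and 15573 CPM with the FCN3 virus. On both scales the sums put the FCN3 virus libraries below the EV libraries. In bulk RNA, fewer cells with a given transcript and less of it per cell cannot be told apart.

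HSP70 family genes fell in 5 of 6 cases (83.3%, against 17.1% of all genes called lower). Of these 5, HSPA1A and HSPA1B are copies that share reads, so they are not 2 separate cases. HSPA1A and HSPA1B encode the stress-inducible HSP70, HSPA8 the constitutive one, and HSPA4 and HSPH1 are large HSP110-type relatives that act as nucleotide exchange factors. The stretches below, the 150 bases before the annotated start of HSPA1A, HSPA1B and HSPA8, show the 2 forms of the heat shock element searched for (RefSeq, GRCh38.p14), while the windows of HSPA4 and HSPH1 held neither. Capitals mark the 3-repeat form, GAANNTTCNNGAA or TTCNNGAANNTTC, where a stretch holds it, and otherwise the 2-repeat form, GAANNTTC or TTCNNGAA. Further 2-repeat matches in a stretch with the 3-repeat form are left in lower case. HSPA1A lies at chr6:31815393-31815542 and HSPA1B at chr6:31827588-31827737, both on the plus strand, and HSPA8 at chr11:123062137-123062286 on the minus strand.
HSPA1A: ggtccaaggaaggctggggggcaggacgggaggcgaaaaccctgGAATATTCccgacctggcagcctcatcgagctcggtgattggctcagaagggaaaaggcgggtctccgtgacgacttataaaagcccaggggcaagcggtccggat
HSPA1B: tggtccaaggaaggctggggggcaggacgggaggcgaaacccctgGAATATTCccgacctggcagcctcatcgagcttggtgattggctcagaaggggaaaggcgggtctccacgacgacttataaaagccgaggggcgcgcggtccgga
HSPA8: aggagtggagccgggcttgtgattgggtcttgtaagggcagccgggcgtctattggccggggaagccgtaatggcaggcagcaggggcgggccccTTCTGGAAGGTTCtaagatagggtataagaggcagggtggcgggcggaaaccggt

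The stretches of HSPA1A and HSPA1B are copies of each other. Over the 250 bases before their starts they shared 235 of 249 aligned bases (94.4%) at a shift of 1 base, including the marked 2-repeat element. The HSPA8 stretch holds a 3-repeat element. In GRCh37 the genes themselves lie on chromosome 6 at 31783320 to 31785723 and at 31795515 to 31798031, separated by 9791 bases.

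The pair was counted with uncertainty, because RSEM divides a read that fits both copies. HSPA1A was at 339 and 381 CPM with EV and at 239 and 238 CPM with the FCN3 virus. HSPA1B was at 190.2 and 209.9 CPM with EV and at 158 and 142 CPM with the FCN3 virus. In both copies the FCN3 virus libraries lay below both EV libraries. HSPA1A fell by 0.59 on the log2 scale (SE 0.05, adjusted p = 2.4e-14 with edgeR) and HSPA1B by 0.42 (SE 0.06, adjusted p = 1.5e-08). Within replicates 1 and 2 HSPA1A differed by -0.51 and -0.68, and HSPA1B by -0.27 and -0.57. The pairs of HSPA1B lay farther apart than its SE shows. Their sum does not depend on how reads were divided between the copies, and was at 529.7 and 590.5 CPM with EV and at 396 and 379 CPM with the FCN3 virus. The sum fell by 0.53 (SE 0.05, edgeR adjusted p = 2.5e-12 with the block and 0.0338 without it).

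HSPA8 was the most abundant of the 37 in every library on the TPM scale. It was at 3195 and 2976 CPM with EV and at 2715 and 2618 CPM with the FCN3 virus, with no overlap, and fell by 0.21 (SE 0.05, edgeR adjusted p = 3.8e-04). The fitted fall of the inducible pair was the larger. The log2 ratio of the HSPA1A and HSPA1B sum to HSPA8 differed between FCN3 virus and EV by -0.18 within replicate 1 and by -0.45 within replicate 2. An exact permutation test of this ratio gave p = 0.333 (two-sided), the smallest that 2 against 2 libraries can give.

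HSPH1, which resets HSP70 and was at 301 and 261 CPM with EV, was at 219.9 and 202 CPM with the FCN3 virus. It fell by 0.41 (SE 0.05, edgeR adjusted p = 1.5e-09). HSPA4 was at 359 and 302 CPM with EV and at 291 and 266 CPM with the FCN3 virus, and fell by 0.25 (SE 0.05, edgeR adjusted p = 5.6e-05). Both genes lay lower in replicate 2 of each group. Their close relative HSPA4L did not pass the test: it was at 47.5 and 41.2 CPM with EV and at 46.3 and 43.6 CPM with the FCN3 virus, a difference of 0.02 (95% interval -0.12 to 0.15). Without the block, the adjusted p of the 6 genes ran from 0.0241 for HSPA1A to 0.947 for HSPA4L.

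Both HSP90 genes fell. HSP90AA1 encodes the inducible isoform and HSP90AB1 the constitutive one. A stretch of HSP90AA1 before an annotated start, at chr14:102087045-102087194 on the minus strand (RefSeq, GRCh38.p14), is shown because this gene had the largest fall among the 3 most abundant members. The gene has 2 promoter windows. They were ordered by their number of matches to the element, and the stretch is from the first. This stretch holds a 3-repeat heat shock element in capitals, in the same orientation as that of HSPA8.
HSP90AA1: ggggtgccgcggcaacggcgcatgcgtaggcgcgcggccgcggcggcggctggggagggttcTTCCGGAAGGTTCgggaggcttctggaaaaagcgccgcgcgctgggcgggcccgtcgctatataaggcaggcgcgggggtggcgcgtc

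HSP90AA1 was at 4282 and 3679 CPM with EV and at 2818 and 2642 CPM with the FCN3 virus, and fell by 0.54 (SE 0.05, edgeR adjusted p = 3.1e-13). HSP90AB1 was at 2537 and 2411 CPM with EV and at 2222 and 2111 CPM with the FCN3 virus, and fell by 0.19 (SE 0.05, edgeR adjusted p = 9.8e-04). Neither gene's groups overlapped. On the TPM scale the order of the isoforms turned: HSP90AA1 was at 2456 and 2091 TPM and HSP90AB1 at 1963 and 1849 TPM with EV, whereas with the FCN3 virus HSP90AA1 was at 1486 and 1416 TPM and HSP90AB1 at 1581 and 1526 TPM. The ratio of HSP90AA1 to HSP90AB1 in TPM was 1.25 and 1.13 with EV and 0.94 and 0.93 with the FCN3 virus. The exact permutation p of the ratio was 0.333, again the smallest possible. Without the block, the adjusted p was 0.0588 for HSP90AA1 and 0.285 for HSP90AB1. Exons of HSP90AA1 overlap WDR20 on the opposite strand, and the strand setting of the authors' counting is not given in the sources used here, so reads of the overlap cannot be told apart. The same holds for BAG2 with RAB23, DNAJB1 with TECR, CRYAB with HSPB2 and HSF1 with DGAT1.

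**Figure D2:**
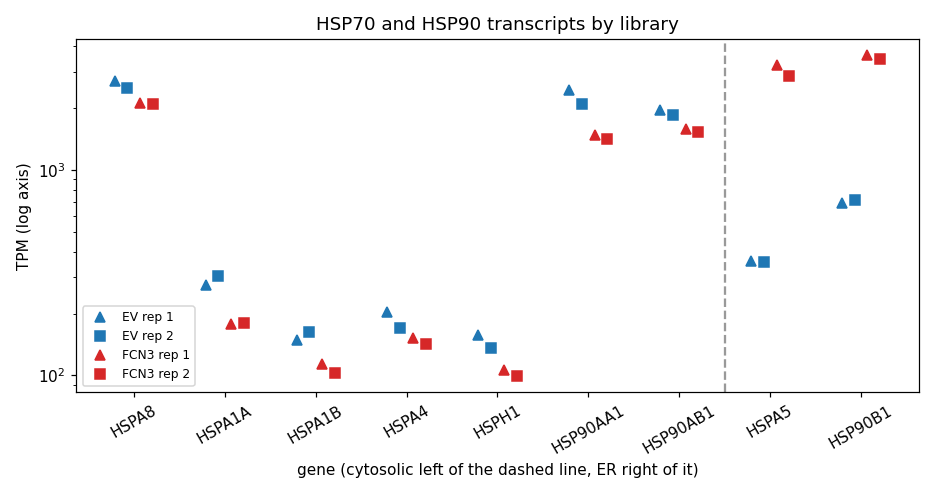
TPM of the HSP70 and HSP90 genes in each library, on a log axis, with the ER chaperones HSPA5 and HSP90B1 to the right of the dashed line. HSP90AA1 went from 2456 and 2091 TPM with EV to 1486 and 1416 TPM with the FCN3 virus, while HSPA5 went from 362 and 357 TPM to 3243 and 2872 TPM.

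The J-proteins, which hand substrates to HSP70, moved in both directions. DNAJA1, the most abundant of the 5 on the TPM scale, was at 488 and 461 CPM with EV and at 380.3 and 384 CPM with the FCN3 virus. It fell by 0.31 (SE 0.05, edgeR adjusted p = 4.4e-07). DNAJB4 and DNAJB6 rose. DNAJB4 was at 32.6 and 29.8 CPM with EV and at 43.6 and 40.6 CPM with the FCN3 virus, a rise of 0.43 (SE 0.07, edgeR adjusted p = 1.6e-06). DNAJB6, a suppressor of protein aggregation, was at 115 and 121 CPM with EV and at 139 and 157 CPM with the FCN3 virus, a rise of 0.32 (SE 0.05, edgeR adjusted p = 2.2e-06). In all 3 genes both FCN3 virus libraries lay on one side of both EV libraries.

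On the TPM scale the rise of DNAJB6 was smaller, from 115 and 115 TPM with EV to 122 and 136 TPM with the FCN3 virus, and limma on log2(TPM + 1) with the block gave 0.16 (adjusted p = 0.0325), so its call was lost there. Exons of DNAJB4 overlap GIPC2 on the same strand, and reads of that overlap cannot be told apart. The stretch before the start of DNAJB6, at chr7:157336854-157337003 on the plus strand (RefSeq, GRCh38.p14), is shown because it carries a 3-repeat heat shock element as HSPA8 and HSP90AA1 do while the gene rose.
DNAJB6: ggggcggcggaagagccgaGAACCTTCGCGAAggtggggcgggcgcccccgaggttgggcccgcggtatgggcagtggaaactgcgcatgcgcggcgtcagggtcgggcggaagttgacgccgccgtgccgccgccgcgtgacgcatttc

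DNAJB1, the main heat-inducible J-protein, was at 169 and 164 CPM with EV and at 161 and 155 CPM with the FCN3 virus. Its difference of -0.08 (95% interval -0.18 to 0.03) did not pass the test (edgeR adjusted p = 0.239), although the groups did not overlap. DNAJA2 was at 125 and 112 CPM with EV and at 124 and 116 CPM with the FCN3 virus, a difference of 0.02 (95% interval -0.09 to 0.13). Without the block, the adjusted p of the 5 J-proteins ran from 0.0750 to 0.923.

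Among the BAG proteins, which release the substrate from HSP70, BAG1 fell. It was at 54.6 and 57.3 CPM with EV and at 44.1 and 48.5 CPM with the FCN3 virus, a fall with no overlap (log2 difference -0.28, SE 0.07, edgeR adjusted p = 3.9e-04, and 0.164 without the block). BAG1 lost its call in DESeq2 with the block (adjusted p = 0.0510). BAG3, the heat-inducible member that also links HSP70 to autophagy, was at 115 and 118 CPM with EV and at 115 and 111 CPM with the FCN3 virus, a difference of -0.05 (95% interval -0.16 to 0.06). BAG2, an inhibitor of the ubiquitin ligase CHIP, was at 51.9 and 40.3 CPM with EV and at 55.8 and 45.4 CPM with the FCN3 virus, and its difference of 0.14 did not pass the test (edgeR adjusted p = 0.0894).

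The small heat shock proteins hold unfolded proteins without using ATP. HSPB8, a partner of BAG3, rose from 10.3 and 10.2 CPM with EV to 16.8 and 13.6 CPM with the FCN3 virus. The rise of 0.59 (SE 0.11, edgeR adjusted p = 1.2e-05, and 0.101 without the block) was the largest increase of the 37, at a low level, and its call was lost in DESeq2 with the block (0.56, adjusted p = 0.0416). HSPB1 was at 288 and 393 CPM with EV and at 316 and 365 CPM with the FCN3 virus, a difference of 0.01 (95% interval -0.09 to 0.12). Within replicates 1 and 2 it differed by 0.13 and -0.11, both outside that interval, so the interval understates the spread of HSPB1. Both groups had the higher HSPB1 value in replicate 2. CRYAB rested on few reads, with expected counts of 7 and 16 in the EV libraries and the same 7 and 16 in the FCN3 virus libraries, so that a difference was not detectable at this depth (-0.14, SE 0.48).

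Of the co-chaperones, 5 of 8 fell (62.5%, against 17.1% of all genes called lower) and 3 did not pass the test. The immunophilins FKBP4 (FKBP52) and FKBP5 (FKBP51), which bind HSP90 in steroid receptor complexes, had the largest falls of the group. FKBP5 was at 47.1 and 35.2 CPM with EV and at 27.3 and 23.4 CPM with the FCN3 virus, and FKBP4 at 382 and 378 CPM with EV and at 257 and 265 CPM with the FCN3 virus. Neither gene's groups overlapped, and the EV libraries of FKBP5 lay farther apart than those of FKBP4. FKBP5 fell by 0.70 (SE 0.08, edgeR adjusted p = 3.9e-11, and 0.0751 without the block), the largest fall of the 37. FKBP4 fell by 0.54 (SE 0.05, edgeR adjusted p = 1.8e-13) and had the smallest adjusted p of the 37 without the block, 0.0204.

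AHSA1, the activator of the HSP90 ATPase, was at 233 and 242 CPM with EV and at 183 and 194 CPM with the FCN3 virus, and fell by 0.33 (SE 0.05, edgeR adjusted p = 3.5e-07). Its exons overlap VIPAS39 on the opposite strand. STIP1 (HOP), which bridges HSP70 and HSP90, was at 514 and 511 CPM with EV and at 463 and 441 CPM with the FCN3 virus, and fell by 0.18 (SE 0.05, edgeR adjusted p = 0.0016). It lost its call in DESeq2 with the block (adjusted p = 0.0121).

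PTGES3 (p23), which stabilizes the closed state of HSP90, was the only called gene of the 37 whose groups overlapped. It was at 707.5 and 591 CPM with EV and at 613 and 516 CPM with the FCN3 virus, so that FCN3 virus replicate 1 lay above EV replicate 2. Within each replicate number it was lower with the FCN3 virus, and it fell by 0.20 in the fit with the block (SE 0.05, edgeR adjusted p = 4.5e-04, and 0.408 without the block). Without the block it had the largest adjusted p of the 24 called genes.

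CDC37, the kinase adaptor of HSP90, was at 188 and 210.3 CPM with EV and at 188 and 205 CPM with the FCN3 virus, a difference of -0.02 (95% interval -0.12 to 0.08). ST13 (HIP), which stabilizes HSP70 on its substrate, was at 227 and 227 CPM with EV and at 212 and 212 CPM with the FCN3 virus, a difference of -0.10 (95% interval -0.20 to 0.0022). Replicates of ST13 lay close together, and the groups did not overlap.

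CHORDC1, an HSP90-binding protein, was at 114 and 108 CPM with EV and at 99.2 and 109 CPM with the FCN3 virus, with overlap, a difference of -0.10 (95% interval -0.22 to 0.01). It is shown here because its stretch at chr11:90223050-90223199, on the minus strand (RefSeq, GRCh38.p14), held the longest run of the element among the printed stretches, 3 overlapping 3-repeat matches in capitals.
CHORDC1: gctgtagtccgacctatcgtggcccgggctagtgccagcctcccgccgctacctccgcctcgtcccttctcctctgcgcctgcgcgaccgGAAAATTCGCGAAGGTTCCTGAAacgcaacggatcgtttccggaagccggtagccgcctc

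The heat shock factors themselves did not pass the test. HSF1, the main activator of the heat shock genes, was at 87.6 and 98.3 CPM with EV and at 99.1 and 98.5 CPM with the FCN3 virus, a difference of 0.09 (95% interval -0.02 to 0.21). HSF2 was at 14.9 and 13.3 CPM with EV and at 12.6 and 14.1 CPM with the FCN3 virus, a difference of -0.10 (95% interval -0.31 to 0.10). Neither reached an unadjusted p under 0.05 in edgeR or in DESeq2. The activity of HSF1 is set largely by its protein state, which RNA counts do not measure.

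Across the set, RefSeq promoter windows from 250 bases before to 50 bases after a start were found for 32 of the 37 genes. The 3-repeat heat shock element, searched in both orientations, was present in 6 of the 32 (18.8%: HSPA8, HSP90AA1, HSP90AB1, DNAJA1, DNAJB6 and CHORDC1), against 0.608% of the 27305 genes with windows. Of these 6 genes, 4 fell, 1 rose and CHORDC1 did not pass the test. In the whole set 56.8% fell, against 17.1% of all genes. The 2-repeat form, GAANNTTC or TTCNNGAA, which lies within every 3-repeat match, was in 18 of the 32 (56.2%) against 16.2% of all genes. The CCT genes TCP1, CCT2 and CCT4 held the 2-repeat form. The ER stress element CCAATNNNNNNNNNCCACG, searched on both strands, was in 0 of the 32 and in 0.0916% of all genes. A match describes letters of the sequence, and no match says only that these letters are not in the window.

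The chaperonin CCT is assembled from 8 different subunits, one of each in each ring. All 8 transcripts were lower with the FCN3 virus, within replicate 1 and within replicate 2, and 7 passed the test (87.5%, against 17.1% of all genes called lower). The fitted changes ran from -0.34 for TCP1 to -0.13 for CCT6A, with a median of -0.18, and correspond to falls of 8.70% to 21.2%. TCP1 was at 325 and 305 CPM with EV and at 251 and 246 CPM with the FCN3 virus, and fell by 0.34 (SE 0.05, edgeR adjusted p = 9.0e-08). CCT2 fell by 0.23, from 534 and 466 CPM with EV to 441 and 408 CPM with the FCN3 virus (SE 0.05, edgeR adjusted p = 7.8e-05). In both genes every FCN3 virus library lay below every EV library, and the fitted change of TCP1 lay outside the range of the other subunits, -0.23 to -0.13. Whether it differed from theirs was not tested. Exons of TCP1 overlap ACAT2 on the opposite strand.

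CCT3 was at 741 and 686 CPM with EV and at 629 and 601 CPM with the FCN3 virus, and CCT5 at 708 and 645 CPM with EV and at 608 and 574 CPM with the FCN3 virus. They fell by 0.21 and 0.19 (SE 0.05 each, edgeR adjusted p = 2.3e-04 and 7.5e-04). CCT4 was at 603 and 556 CPM with EV and at 536 and 498 CPM with the FCN3 virus. CCT7 was at 832 and 826 CPM with EV and at 747 and 752 CPM with the FCN3 virus, and CCT8 at 298 and 266 CPM with EV and at 257 and 248 CPM with the FCN3 virus. These 3 genes fell by 0.16, 0.15 and 0.16 with adjusted p of 0.0039, 0.0099 and 0.0081 in edgeR, close to the threshold of 0.01. All 3 lost the call with no filter on low counts, with FCN3 left out before normalization, and in DESeq2 with the block, and CCT8 also with a dispersion estimated before the fit.

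CCT6A was at 578 and 510.1 CPM with EV and at 522 and 472 CPM with the FCN3 virus. It was the only subunit whose groups overlapped and the only one that did not pass the test (-0.13, edgeR adjusted p = 0.0221). At an adjusted p under 0.05 all 8 subunits were called lower, and of the 37 genes 22 were called lower and 3 higher. Of all tested genes 46.8% were called at that threshold, 22.3% lower and 24.5% higher. Without the block, the adjusted p of the 8 subunits ran from 0.0651 to 0.487, and 1 of the 8 (12.5%) had an unadjusted p under 0.05, against 25.1% of all genes.

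On the TPM scale the subunits were not at equal levels, although the complex holds them in equal number. TCP1 was the lowest in every library, at 261 and 243 TPM with EV and at 185 and 184 TPM with the FCN3 virus, and CCT7 was the highest, at 877 and 877 TPM with EV and at 723 and 736 TPM with the FCN3 virus. The ratio of the highest to the lowest subunit was 3.37 and 3.61 with EV and 3.91 and 3.99 with the FCN3 virus. The ratio was larger with the FCN3 virus in both pairs.

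**Figure D3:**
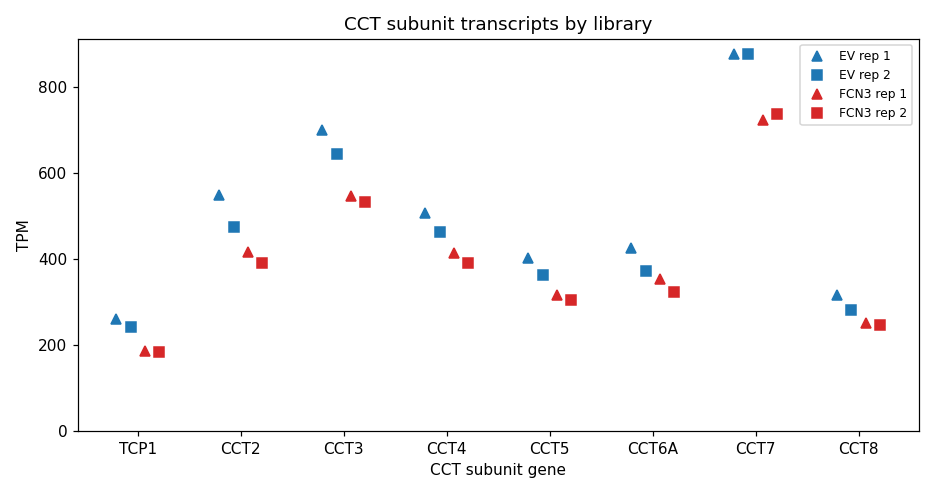
TPM of the 8 CCT subunits in each library, on a linear axis from 0. Every subunit was lower with the FCN3 virus within each replicate number, from TCP1 at 261 and 243 TPM with EV against 185 and 184 TPM, to CCT7 at 877 and 877 TPM against 723 and 736 TPM.

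Genes that work beside CCT were compared as lists. Prefoldin, which carries actin and tubulin to CCT, phosducin-like proteins and tubulin cofactors gave 15 tested genes, of which 1 rose and 3 fell (26.7% called, against 36.2% of all genes), with a median of -0.06. PFDN2, a prefoldin subunit, rose by 0.60, while TBCD, PDCL3 and TBCB fell by 0.41, 0.24 and 0.22. The substrates of CCT moved more: of 13 actin and tubulin genes, 10 fell and 1 rose (84.6% called, against 36.2%), with a median of -0.33. TUBB was at 2080.3 and 2196 CPM with EV and at 1321 and 1391 CPM with the FCN3 virus and fell by 0.66, TUBA1B fell by 0.61 and TUBB4B by 0.51, while TUBB2B rose by 0.32. Tubulin paralogues share reads, so the division between them is uncertain. Without the block, edgeR called none of the genes of either list, while 2 of the 15 and 9 of the 13 had an unadjusted p under 0.05, against 25.1% of all genes, and DESeq2 without the block called 1 and 5.

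The further cytosolic chaperones, a list of 33 of which 28 were tested, showed 9 falls and 2 rises (39.3% called, near the 36.2% of all genes) and a median of -0.07. HSPA2, a testis-enriched HSP70, fell by 1.46, from 54.6 and 113 CPM with EV to 19.0 and 42.7 CPM with the FCN3 virus, and differed between replicate numbers by 1.10 (edgeR adjusted p = 2.1e-25 with the block and 0.146 without it). CACYBP and PPP5C, which bind HSP90 complexes, fell by 0.43 and 0.42, and the J-proteins DNAJB5 and DNAJB2 rose by 0.46 and 0.38. HSPA6, the strictly heat-inducible HSP70, is named after its values were seen: it was at 0.52 and 0.90 CPM with EV and at 1.21 and 0.75 CPM with the FCN3 virus, and did not pass the test (edgeR adjusted p = 0.120).

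In mitochondria, 4 of 8 tested chaperone genes changed (50%, against 36.2% of all genes). HSPE1, HSPD1 and TRAP1 fell by 0.42, 0.23 and 0.21, and HSPA9, the mitochondrial HSP70, rose by 0.31. The list median was -0.07. Without the block, edgeR called none of these 8 nor of the 28 further cytosolic chaperones, while 2 (25%) and 6 (21.4%) had an unadjusted p under 0.05, against 25.1% of all genes, and DESeq2 without the block called 1 and 2.

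The ER chaperones went the other way. All 14 tested genes of that list rose (100%, against 19.1% of all genes called higher), with a median of 2.26. Of these, 12 passed the test also without the block, against 0.738% of all genes called higher. HSPA5, the HSP70 of the ER, was at 751 and 747 CPM with EV and at 7314 and 6371 CPM with the FCN3 virus and rose by 3.19 (SE 0.06). HSP90B1, the HSP90 of the ER, was at 1018 and 1059 CPM with EV and at 5813 and 5478 CPM with the FCN3 virus and rose by 2.44 (SE 0.05). DNAJB9 and HYOU1, an ER J-protein and an ER relative of HSPH1, rose by 3.16 and 2.88. Summed over the list, the ER chaperones went from 3414 and 3299.9 TPM with EV to 14225 and 12825 TPM with the FCN3 virus, while the 37 cytosolic genes went from 16218 and 15280.1 TPM to 12541 and 12342 TPM.

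HSPA8 and HSP90AB1 were above their ER paralogues with EV and below them with the FCN3 virus. HSPA8 was 7.52 and 7.05 times HSPA5 in TPM with EV and 0.66 and 0.73 times with the FCN3 virus. HSP90AB1 was 2.83 and 2.59 times HSP90B1 with EV and 0.43 and 0.44 times with the FCN3 virus. On the CPM scale the log2 ratio differed between FCN3 virus and EV by -3.40 for HSPA8 to HSPA5 and by -2.63 for HSP90AB1 to HSP90B1. The direction was the same in both pairs, and the exact permutation p was 0.333 for each, the smallest that 2 against 2 libraries allow.

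**Figure D4:**
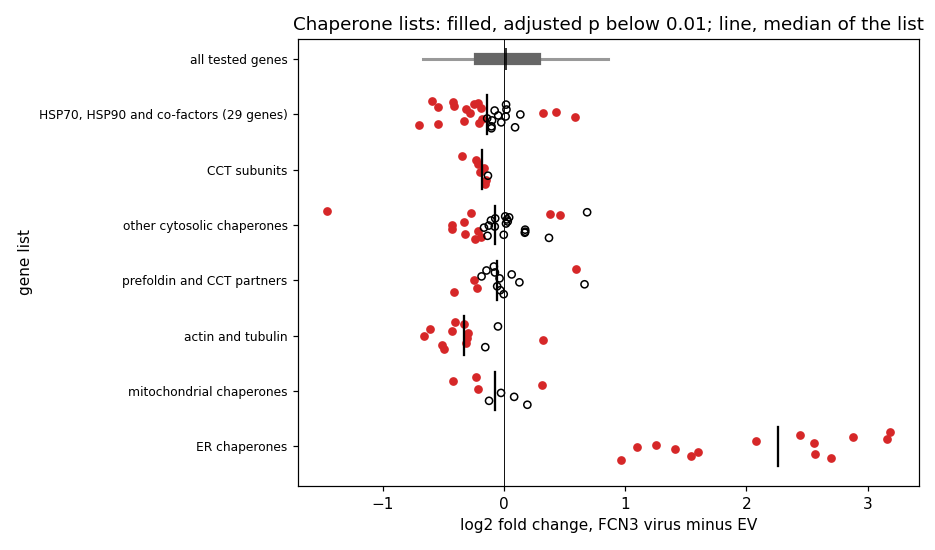
Log2 differences between FCN3 virus and EV for the 37 genes and the 5 further lists, with all tested genes as thin (5th to 95th percentile) and thick (quartile) bars. Filled points passed the test with the block, and the line marks each list's median, from 2.26 for the ER chaperones to -0.33 for actin and tubulin. The 37 genes are drawn as the 8 CCT subunits, with a median of -0.18, and the other 29 genes, with a median of -0.14.

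Some of the 37 genes also differed by replicate number. In the fit with the block, 8 of the 37 differed between replicates 1 and 2. This share is close to the 22.2% of all tested genes, 11.7% higher and 10.5% lower in replicate 2, so it is not particular to the set. HSPB1 and CRYAB were higher in replicate 2, by 0.33 and 2.12, and HSPA4, HSPH1, BAG2, PTGES3, FKBP5 and CCT6A were lower there. HSPA4, HSPH1, PTGES3 and FKBP5 differed both by replicate number and by virus. In 8 genes, HSPA4L, DNAJA2, BAG2, HSPB1, CRYAB, CDC37, PTGES3 and CCT6A, the difference between replicate numbers was larger than that between the groups. The number of members called by replicate was 2 in DESeq2 with the block and 5 with no filter on low counts. The shares of all genes in these settings are not given here.

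**Figure D5:**
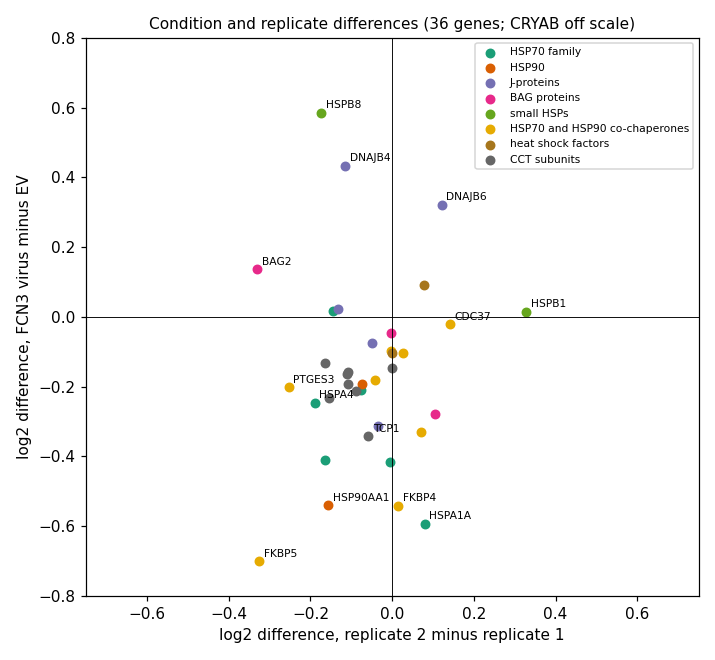
Log2 difference between the groups (FCN3 virus minus EV) against the log2 difference between replicates (2 minus 1) for 36 of the 37 genes. CRYAB, at 2.12 for the replicate difference, lies off the scale. FKBP5, at -0.70 and -0.33, is lowest on the group difference.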

How the data were processed

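RNA-seq of 4 libraries was compared, 2 from A549 cells given the control virus (EV) and 2 from cells given the FCN3 virus, grouped and numbered from the labels. The authors used a stranded mRNA kit and paired-end reads, aligned trimmed reads to hg19 with STAR 2.6.1d and estimated abundance with RSEM. They deposited RSEM's expected counts per gene, which are not normalized and can hold fractions of a read. The deposited TPM values are normalized for length and depth and have the same total in each library. FPKM was deposited too and was not used here. The strand setting of the counting is not given in the sources used here.

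Expected counts were rounded and fitted in R 4.3.3 with edgeR 4.0.16 (TMM, filterByExpr, quasi-likelihood test, Benjamini-Hochberg over 14099 genes, threshold 0.01, the study's value), with the replicate number as a block. SE was derived from the F statistic, and 95% intervals are normal approximations. Pairing comes only from the shared replicate numbers of the labels. Over 8310 genes above an average log2 CPM of 4, the replicate difference of EV correlated with that of the FCN3 virus libraries (r = 0.807, across genes, which are not independent). With 2 pairs this is a hint and not the design. Fits without the block stand beside the results. Only the threshold is the study's: its authors called genes with DESeq2 and mention no replicate block. Alternatives were DESeq2 1.42.0 with and without the block, RLE factors, no filter, FCN3 left out, a looser threshold of 0.05, a required size of 1 on the log2 scale, limma 3.58.1 on log2(TPM + 1) and each library left out. Per-library ratios were tested by exact permutation. The scripts were tested on simulated data. Depth (totals and the floor of 3 counts) covers counting error only.

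Members and lists were chosen with earlier results of these data known. All members are named. From other lists at most the 3 largest called increases and 3 largest called decreases are named, beside FCN3, HSPA5 and HSP90B1. Gene positions are from GENCODE on GRCh37 and promoters from RefSeq (GRCh38.p14). In GENCODE, exons of 15 members overlap a gene on the opposite strand and of 5 a gene on the same strand. The result for 1 marker gene is not reported here.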

Additional observations from a re-analysis of the deposited data

How the results depend on the processing

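The replicate block decided most calls. With no block, calls went from 24 to 0 members, 7 to 0 CCT subunits, 11 to 0 further cytosolic chaperones, 4 to 0 prefoldin and CCT partners, 11 to 0 actin and tubulin genes, 4 to 0 mitochondrial chaperones and 5103 to 136 genes in all, and the HSPA1A and HSPA1B sum, -0.53 in both, lost its call (adjusted p = 0.0338). The cause was not tested. In the same order, DESeq2 with no block called 4, 0, 2, 1, 5, 1 and 1047, and a required size of 1 on the log2 scale left 0, 0, 1, 0, 0, 0 and 689, with the sum at -0.53. DESeq2 with the block called 4 CCT subunits, 5 further cytosolic chaperones, 2 prefoldin and CCT partners, 2212 genes and, by replicate number, 2 members. No filter on low counts gave 4 CCT subunits and 5 members by replicate number, and FCN3 left out gave 4 CCT subunits.

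Each library left out in turn, fitted without the block because 3 libraries leave no residual degree of freedom with it, gave 0 to 0 calls in each list but the ER chaperones (12 to 13), 92 to 267 genes in all, and a sum of -0.60 to -0.46. An unadjusted p under 0.05 was reached by 6 members (16.2%, against 16% of all genes) without FCN3 virus replicate 2 to 16 (43.2%, against 21.1%) without EV replicate 2. Log2 ratios ran from -3.47 to -3.32 (HSPA8 to HSPA5) and -2.70 to -2.57 (HSP90AB1 to HSP90B1). Among single genes not called, signs turned for HSPA4L (-0.085 to 0.14), DNAJA2 (-0.065 to 0.12), BAG2 (-0.040 to 0.34), HSPB1 (-0.20 to 0.24), CRYAB (-1.13 to 1.15), CDC37 (-0.090 to 0.051) and HSF2 (-0.17 to 0.0044).

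Scaling moved the direction of calls over all genes, from 2690 higher and 2413 lower to 1437 and 3144 (limma on TPM) and 2181 and 3299 (library totals only). Members stayed mostly lower, 23 of 25 and 23 of 26. On TPM, HSPA4L (-0.077), DNAJA2 (-0.079), HSPB1 (-0.090) and HSF1 (-0.013) turned sign, as did HSPA4L (-0.046), DNAJA2 (-0.042) and HSPB1 (-0.048) with library totals and HSPB1 (-0.0091) in DESeq2 with no block. RLE factors kept 24 members called. Library totals and a dispersion estimated before the fit (23 members) were chosen after seeing the data. Only 2 libraries a group and their depth limit what could be called.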
